A study of Homo sapiens with 18 samples.

Results

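The genes described here encode enzymes that make cholesterol, the proteins that sense and move it, and the transporters that export it. They were taken by symbol from a fixed list of 29 names, and all 29 were found among the 35025 rows of the count table and passed the filter on low counts that left 15531 genes for testing. Bulk RNA-seq gave their expression in foregut endoderm, the precursor of lung, liver, pancreas and upper gut, made from wild-type H1 cells, 1 human embryonic stem cell line. There were 6 groups of 3 libraries. RA-CHIR/BMP4 libraries (day 9) had 2 µM all-trans retinoic acid (RA) for 24 h from day 5 to day 6, then 2 µM CHIR99021 (a GSK3 inhibitor that activates Wnt signalling) and 50 ng/mL BMP4 (a growth factor) for 72 h from day 6 to day 9. Day 9 RA libraries had the same RA pulse and no CHIR99021 or BMP4. CHIR/BMP4 libraries (day 9) had CHIR99021 and BMP4 at those doses without RA. Untreated day 9 libraries had none of these agents. Day 6 RA libraries were taken at the end of the RA pulse, and untreated day 6 libraries had no RA. RA was used to find the genes it regulates, and CHIR99021 with BMP4 to imitate signals that induce respiratory fate.

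Cells build cholesterol from acetyl-CoA through mevalonate and isoprenoid diphosphates to squalene, which is closed to lanosterol and trimmed to cholesterol. SREBP transcription factors, escorted by SCAP and held in the endoplasmic reticulum by INSIG proteins when sterols are plentiful, switch on the genes of this route. Liver X receptors, which partner with retinoid X receptors and respond to oxysterols, switch on the exporters ABCA1 and ABCG1. Cholesterol also modifies Hedgehog proteins, which pattern the foregut.

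Promoter sequence is shown for 6 members on which the results below turn. They are the regulator SREBF2, the mevalonate genes HMGCS1 and IDI1, the sterol enzyme gene SC5D, the sensor gene INSIG1 and the exporter gene ABCA1. Among the 24 members with a window, SREBF2 held the only match to the letters searched for the sterol response element. Each line gives the 250 bases before a RefSeq transcript start (GRCh38.p14), 5′ to 3′ on the gene's strand, with motif matches in capitals. The windows are SREBF2 at chr22:41832855-41833104 on the plus strand, HMGCS1 at chr5:43313413-43313662 on the minus strand, IDI1 at chr10:1048887-1049136 on the minus strand, SC5D at chr11:121292521-121292770 on the plus strand, INSIG1 at chr7:155297628-155297877 on the plus strand and ABCA1 at chr9:104928156-104928405 on the minus strand.
SREBF2: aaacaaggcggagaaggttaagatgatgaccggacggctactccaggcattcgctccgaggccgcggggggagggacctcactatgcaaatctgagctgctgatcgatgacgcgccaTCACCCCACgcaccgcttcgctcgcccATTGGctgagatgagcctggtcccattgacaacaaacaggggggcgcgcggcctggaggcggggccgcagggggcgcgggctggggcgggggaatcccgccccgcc
HMGCS1: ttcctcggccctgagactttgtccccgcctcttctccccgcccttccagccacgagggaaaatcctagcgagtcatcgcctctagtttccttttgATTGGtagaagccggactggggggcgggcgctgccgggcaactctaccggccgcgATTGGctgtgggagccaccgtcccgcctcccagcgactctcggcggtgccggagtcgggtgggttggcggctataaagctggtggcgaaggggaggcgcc
IDI1: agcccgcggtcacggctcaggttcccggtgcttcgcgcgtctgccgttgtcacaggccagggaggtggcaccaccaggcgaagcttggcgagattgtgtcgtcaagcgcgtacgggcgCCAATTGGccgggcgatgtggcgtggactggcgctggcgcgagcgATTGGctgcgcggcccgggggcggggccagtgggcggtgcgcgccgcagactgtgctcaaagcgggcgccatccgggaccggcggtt
SC5D: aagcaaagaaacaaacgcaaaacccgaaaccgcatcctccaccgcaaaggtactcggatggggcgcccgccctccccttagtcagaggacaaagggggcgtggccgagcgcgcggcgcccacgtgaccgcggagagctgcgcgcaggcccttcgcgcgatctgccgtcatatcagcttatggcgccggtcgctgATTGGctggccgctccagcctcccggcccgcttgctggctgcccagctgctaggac
INSIG1: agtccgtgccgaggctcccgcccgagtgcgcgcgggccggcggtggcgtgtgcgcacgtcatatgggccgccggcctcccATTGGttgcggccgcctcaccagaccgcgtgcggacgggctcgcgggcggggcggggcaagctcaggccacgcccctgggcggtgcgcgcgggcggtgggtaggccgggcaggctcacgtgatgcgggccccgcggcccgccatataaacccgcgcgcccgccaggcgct
ABCA1: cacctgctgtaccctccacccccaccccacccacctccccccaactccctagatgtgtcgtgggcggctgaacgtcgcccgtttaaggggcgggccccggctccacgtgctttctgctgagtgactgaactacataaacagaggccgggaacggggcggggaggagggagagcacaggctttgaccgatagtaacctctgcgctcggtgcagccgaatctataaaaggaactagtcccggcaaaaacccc
Of the 29 genes, 24 matched the RefSeq promoter table, with 31 windows reaching from 250 bases before to 50 after a start. The sterol response element was searched as TCACNCCAC on both strands. It was found in 1 of the 31 windows, as TCACCCCAC at position -133 of SREBF2, and in 1.13% of all 35116 windows in the table. The CCAAT box, searched on both strands, was found in 19 of the 31 windows (61.3%), against 34.6% of all windows and 34.7% of the 22199 windows of protein-coding genes. At least 2 CCAAT boxes were present in 41.9% of the members' windows, against 10.8% of all windows. Where a gene has several windows, the one with most matches is printed. In that of HMGCS1 they start at -155 and -100, and in that of IDI1 at -132, -129 and -87, where the pair at -132 and -129 overlap. The other window of HMGCS1 has 0, and the other windows of IDI1 have 0 and 2, with 0 in the one at the annotated start of the gene. SC5D has 1 at -56, INSIG1 has 1 at -170 and ABCA1 has none. A direct repeat of exactly AGGTCA with 4 bases between, also searched on both strands, was in 0 of the 31 windows. It was in 7 of all 35116 windows (0.0199%), too rare for the 0 to show anything particular to the members. In the printed windows no match overlapped one of another motif. These matches are descriptions of the letters in the windows, not of factor binding. Each search took only the stated letters, so sites that differ by a base were not counted. A window without a match, such as that of ABCA1 for the repeat, may therefore still hold a variant.

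Libraries held 5792269 to 25371403 counts, and the 29 genes took 0.171% to 0.214% of them. Whether the 3 libraries of a group came from separate cultures is not said in the labels, and p-values reflect only how far these libraries spread. In 56 genes the treated libraries lay at least 10-fold apart from untreated day 9 libraries and replicate 2 of untreated day 6. Of those, 53 (94.6%) were pseudogenes, against 3.65% of all genes at or above 2 CPM (counts scaled to a common library total). Pseudogenes higher in treated libraries took 93.7% to 95.4% of the reads of this set in treated libraries, against 0.321% to 0.565% in untreated day 9 libraries and replicate 2 of untreated day 6, and 8.96% and 17.6% in replicates 1 and 3 of untreated day 6. The gap between the libraries used to choose the genes follows from that choice. Replicates 1 and 3 of untreated day 6 took no part in it. None of the 29 genes was among the 56. Comparisons of treated with untreated libraries cannot be told apart from this difference in kind of library, so comparisons among treated libraries come first. The summed level of 8 endoderm markers (among them FOXA2 and SOX17) was 1428 to 1471 CPM in RA-CHIR/BMP4, 1605 to 1783 in day 9 RA, 902 to 1115 in CHIR/BMP4, 755 to 949.5 in untreated day 9, 1736 to 1912 in day 6 RA and 854 to 962 in untreated day 6 libraries. In bulk samples, fewer cells of a type and less RNA per cell cannot be told apart.

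Levels between genes were compared in TPM, which corrects for gene length. SQLE, the squalene epoxidase gene, had the highest mean over the 18 libraries, 95.1 TPM, and SREBF2 followed at 88.4 TPM. The order differed between groups: SQLE led in RA-CHIR/BMP4, CHIR/BMP4 and untreated day 6 libraries, SC5D in day 9 RA (151 ± 21.8 TPM), SREBF2 in untreated day 9 (84.8 ± 1.33 TPM) and ABCA1 in day 6 RA libraries (143 ± 5.92 TPM; SD, n = 3 each). In CHIR/BMP4 libraries SQLE and SREBF2 (86.3 ± 11.2 and 83.5 ± 3.82 TPM) lay within their spread. In untreated day 6 libraries the values of SQLE and SREBF2 overlapped as well (88.0 ± 5.60 and 76.1 ± 11.1 TPM). MSMO1, HMGCS1 and ABCA1 averaged 67.2, 66.3 and 66.1 TPM. ABCG1 was the lowest at 0.986 TPM, with 342 counts in all libraries together, and CYP51A1 was next at 1.74 TPM with 380 counts. CYP51A1 overlaps 2 other protein-coding genes on its own strand in GENCODE 29, so its counts are uncertain. TM7SF2 overlaps VPS51 on the same strand and is uncertain for the same reason. Other members overlap genes on the opposite strand, among them ACAT2 (TCP1), IDI1 (WDR37 and IDI2-AS1), SREBF1 (RAI1) and NPC1 (RMC1). The strand setting of the counts is not known, so these may share reads as well. FDPS has 8 pseudogene copies in the table, which held 8.95% of their joint counts.

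Across the 6 groups a few members had the widest changes in mean CPM. The ratio of the highest to the lowest group mean was 9.02 for ABCG1, 5.61 for SC5D, 5.03 for ABCA1, 3.33 for CYP51A1 and 3.08 for INSIG1, and between 1.20 and 2.45 for the other members. Day 9 RA libraries held the highest mean of 9 members and RA-CHIR/BMP4 libraries that of 8, while CHIR/BMP4 libraries held the highest mean of 1. Day 6 RA libraries held the highest mean of 6 members and the lowest of 7.

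**Figure D1:**
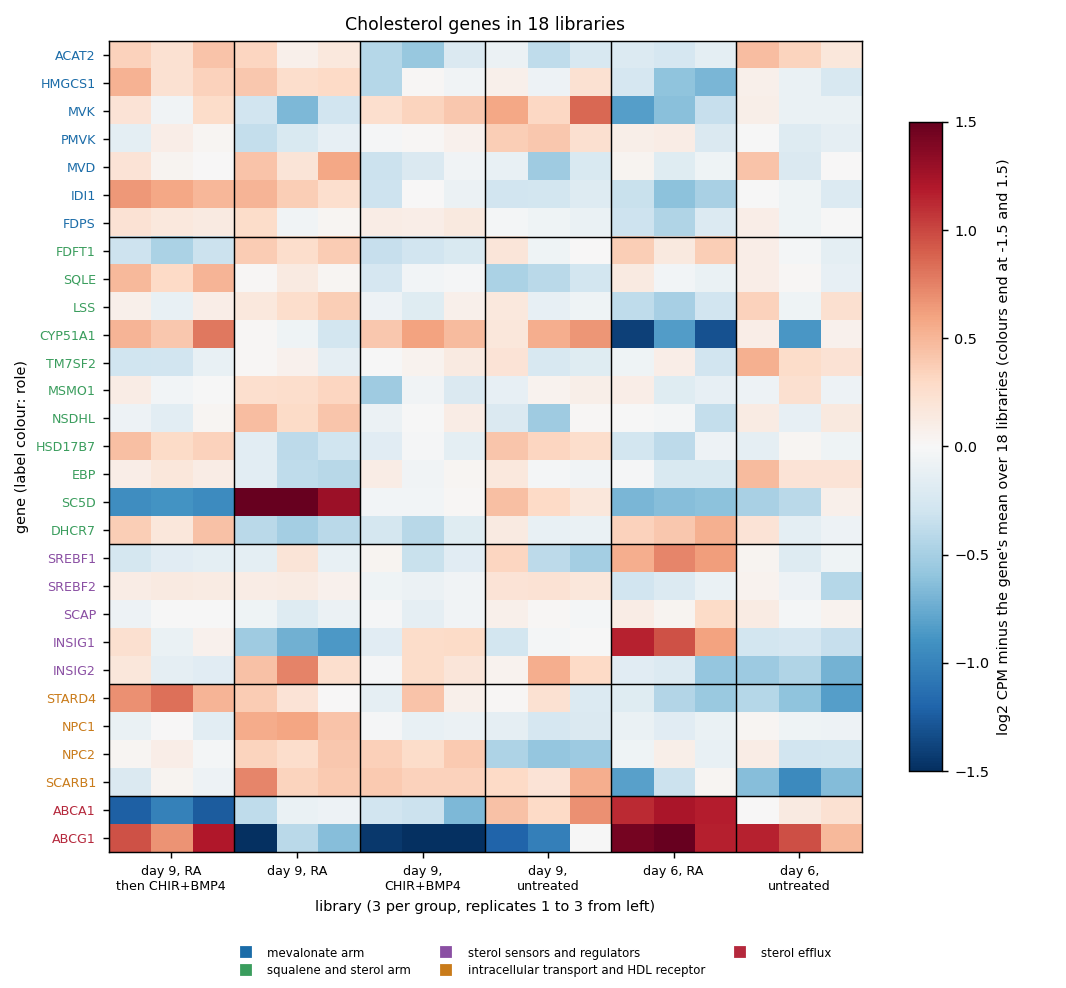
Level of 29 cholesterol genes (rows, ordered by role) in 18 libraries (columns, 3 per group), as log2 CPM minus each gene's mean over all libraries, with red above and blue below the mean and the colours ending at 1.5 either way. SC5D is darkest red in the 3 day 9 RA libraries, ABCA1 and ABCG1 are red in the 3 day 6 RA libraries, and INSIG1 is highest in day 6 RA libraries.

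RA-CHIR/BMP4 was first set against day 9 RA, which asks what CHIR99021 with BMP4 changed in cells that had seen RA. The steepest change was in SC5D, which encodes the sterol desaturase near the end of the route and was 5.60-fold lower. ABCA1, the exporter that loads cholesterol onto apolipoprotein A-I, was 1.98-fold lower, while ABCG1, which loads HDL, was 3.13-fold higher. INSIG1 rose 1.74-fold and DHCR7, the last reductase of the route, 1.71-fold. Of the 29 members 10 rose and 10 fell at adjusted p below 0.05, and of all tested genes 32.1% rose and 32.3% fell, so the members' share (34.5% each way) was close to the background. Their median log2 fold change was 0.05, against 0.02 over all tested genes.

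In the mevalonate arm, 2 of 7 genes rose and 0 fell (median 0.15). RLE factors gave 1 rise and 1 fall in this arm, and upper-quartile scaling gave 3 rises and no fall (median 0.24). HMGCS1, the cytosolic HMG-CoA synthase gene, had 179, 146 and 158 CPM in RA-CHIR/BMP4 libraries, against 165, 149 and 153 CPM in day 9 RA libraries. The groups overlapped, and the difference did not pass the test (log2 fold change 0.05 ± 0.12, adjusted p = 0.72). MVK, the mevalonate kinase gene, rose (log2 fold change 0.56 ± 0.15, adjusted p = 0.0019), and so did IDI1, the isoprenoid isomerase gene (log2 fold change 0.21 ± 0.09, adjusted p = 0.047), whose call ended when any of 4 libraries was left out, with adjusted p = 0.18 and 0.087 without replicate 1 or 2 of RA-CHIR/BMP4 and 0.1 and 0.22 without replicate 2 or 3 of day 9 RA. On TPM the adjusted p of IDI1 was 0.089. The other 4 genes of the arm lay between -0.31 (MVD) and 0.21 (PMVK) on the log2 scale and did not pass. Here and below, ± after a log2 fold change is its standard error (SE), a bare value in parentheses after a gene is its log2 fold change, and CPM values are listed for replicates 1 to 3.

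In the squalene and sterol arm, 5 of 11 genes rose and 5 fell, or 3 with upper-quartile factors or TPM. SC5D had 74.0, 75.6 and 73.0 CPM in RA-CHIR/BMP4 libraries, against 440.2, 466 and 341 CPM in day 9 RA libraries. Every RA-CHIR/BMP4 value lay below every day 9 RA value (log2 fold change -2.49 ± 0.13, adjusted p = 2.3e-12). FDFT1, the squalene synthase gene, had 86.0, 76.6 and 85.6 CPM in RA-CHIR/BMP4 libraries, against 138, 128 and 139 CPM in day 9 RA libraries. FDFT1 was lower without overlap (log2 fold change -0.70 ± 0.08, adjusted p = 1e-07). DHCR7 had 110.3, 95.7 and 116 CPM in RA-CHIR/BMP4 libraries, against 64.5, 59.7 and 64.4 CPM in day 9 RA libraries. DHCR7 was higher without overlap (log2 fold change 0.77 ± 0.10, adjusted p = 2.7e-07). HSD17B7, a keto-sterol reductase gene, had 15.2, 13.5 and 14.1 CPM in RA-CHIR/BMP4 libraries, against 9.95, 8.46 and 9.00 CPM in day 9 RA libraries. Its 3 RA-CHIR/BMP4 values were the higher ones (log2 fold change 0.66 ± 0.12, adjusted p = 6.7e-05). SQLE had 136, 119.9 and 138 CPM in RA-CHIR/BMP4 libraries, against 98.7, 107 and 99.3 CPM in day 9 RA libraries. SQLE was higher in all 3 libraries (log2 fold change 0.37 ± 0.08, adjusted p = 0.00052).

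CYP51A1, the lanosterol demethylase gene, had 2.49, 2.31 and 3.03 CPM in RA-CHIR/BMP4 libraries, against 1.76, 1.67 and 1.44 CPM in day 9 RA libraries, from 22 to 52 counts in the first group and 11 to 16 in the second. The groups did not overlap (log2 fold change 0.67 ± 0.27, adjusted p = 0.034), but the call ended without replicate 1 or 3 of RA-CHIR/BMP4 (adjusted p = 0.064 and 0.092) or replicate 2 or 3 of day 9 RA (adjusted p = 0.07 and 0.12). EBP, a sterol isomerase gene, also rose (log2 fold change 0.45 ± 0.11, adjusted p = 0.00091). NSDHL, a sterol dehydrogenase gene, fell (log2 fold change -0.46 ± 0.12, adjusted p = 0.0018). The falls of LSS, the lanosterol synthase gene, and of MSMO1, a sterol methyl oxidase gene, were small (log2 fold change -0.25 ± 0.10, adjusted p = 0.034 and log2 fold change -0.25 ± 0.11, adjusted p = 0.04). The LSS call ended without replicate 2 of RA-CHIR/BMP4 or replicate 2 or 3 of day 9 RA (adjusted p between 0.066 and 0.15), and the MSMO1 call without any 1 of the day 9 RA libraries or replicate 2 or 3 of RA-CHIR/BMP4 (adjusted p between 0.055 and 0.12). On TPM the adjusted p was 0.095 for LSS and 0.083 for MSMO1. TM7SF2, another sterol reductase gene, did not pass (log2 fold change -0.22 ± 0.12, adjusted p = 0.1).

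Of the 5 sensors and regulators, 1 rose (2 with upper-quartile factors) and 1 fell. INSIG1 had 20.5, 16.2 and 18.2 CPM in RA-CHIR/BMP4 libraries, against 12.0, 10.5 and 9.56 CPM in day 9 RA libraries. All RA-CHIR/BMP4 values were above the day 9 RA values (log2 fold change 0.80 ± 0.16, adjusted p = 0.00011). Its relative INSIG2 fell (log2 fold change -0.51 ± 0.15, adjusted p = 0.0046), a call that ended without replicate 2 of day 9 RA (adjusted p = 0.061). SREBF1, which drives fatty acid synthesis genes more than cholesterol genes, had 47.9, 51.2 and 52.1 CPM in RA-CHIR/BMP4 libraries, against 51.8, 65.7 and 53.4 CPM in day 9 RA libraries. SREBF2, the main driver of cholesterol genes, had 266, 271 and 269 CPM in RA-CHIR/BMP4 libraries, against 266, 269 and 258 CPM in day 9 RA libraries. Both overlapped between groups, and neither passed (log2 fold change -0.19 ± 0.17, adjusted p = 0.35 for SREBF1 and log2 fold change 0.02 ± 0.08, adjusted p = 0.82 for SREBF2), nor did SCAP (log2 fold change 0.09 ± 0.07, adjusted p = 0.3).

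All 4 transport genes passed, 1 higher and 3 lower. NPC1, which exports cholesterol from lysosomes, had 59.1, 63.6 and 56.6 CPM in RA-CHIR/BMP4 libraries, against 93.2, 95.0 and 84.8 CPM in day 9 RA libraries. NPC1 was lower without overlap (log2 fold change -0.60 ± 0.07, adjusted p = 7.9e-08). SCARB1, the HDL receptor gene, had 23.7, 28.2 and 26.2 CPM in RA-CHIR/BMP4 libraries, against 45.9, 34.8 and 36.1 CPM in day 9 RA libraries. SCARB1 too was lower in every library (log2 fold change -0.58 ± 0.15, adjusted p = 0.0016). NPC2, the soluble partner of NPC1, fell (log2 fold change -0.30 ± 0.09, adjusted p = 0.0046) and STARD4, a cytosolic sterol carrier gene, rose (log2 fold change 0.49 ± 0.14, adjusted p = 0.0041).

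The exporters moved apart. ABCA1 had 72.8, 84.2 and 71.5 CPM in RA-CHIR/BMP4 libraries, against 130.4, 158 and 162 CPM in day 9 RA libraries. ABCA1 was lower in all 3 libraries (log2 fold change -0.98 ± 0.11, adjusted p = 1.3e-07). ABCG1 had 2.68, 2.21 and 3.17 CPM in RA-CHIR/BMP4 libraries, against 0.481, 1.04 and 0.889 CPM in day 9 RA libraries, from 22 to 56 counts in the first group and 3 to 10 in the second. ABCG1 was higher in all 3 (log2 fold change 1.65 ± 0.35, adjusted p = 0.00022).

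**Figure D2:**
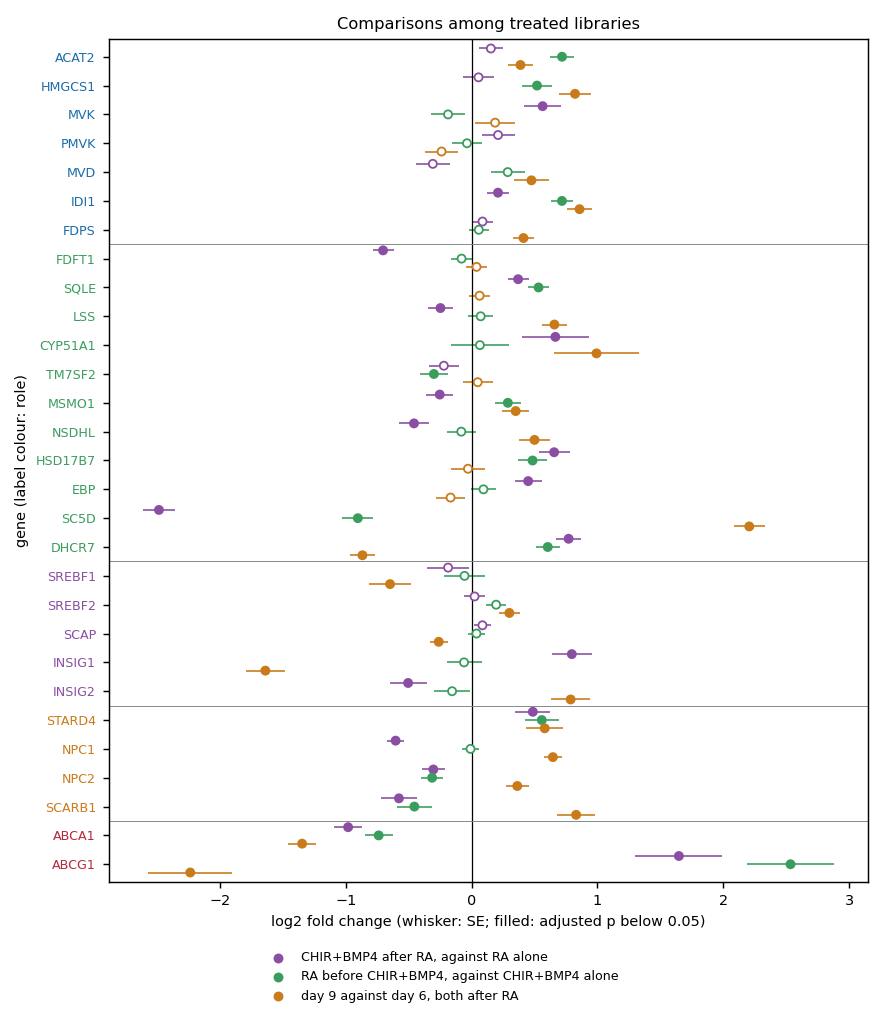
Log2 fold change (x axis) of the 29 genes (y axis, ordered by role) in 3 comparisons among treated libraries, with SE whiskers and filled points where adjusted p was below 0.05. SC5D reached -2.49 for CHIR/BMP4 after RA and 2.21 for day 9 against day 6 after RA, and ABCA1 was negative in all 3.

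Neighbouring lipid genes were read from 4 fixed lists of 51 genes, all in the table. Of 14 fatty acid synthesis genes 9 rose and 4 fell (median 0.33). ELOVL6, a fatty acid elongase gene (log2 fold change 1.08 ± 0.18, adjusted p = 6.6e-05), GPAM, which starts glycerolipid synthesis (log2 fold change 0.98 ± 0.08, adjusted p = 2e-10), and SCD, the stearoyl-CoA desaturase gene (log2 fold change 0.89 ± 0.10, adjusted p = 1.2e-07), had the steepest rises. ME1, the cytosolic malic enzyme gene, fell most (log2 fold change -1.02 ± 0.17, adjusted p = 1.2e-05), before ACSS2 (-1.01) and ACSL3 (-0.76), which activate acetate and fatty acids. Of 6 tested liver X receptor genes and targets, 5 rose and 0 fell. They included MYLIP, the ubiquitin ligase that degrades lipoprotein receptors (log2 fold change 2.21 ± 0.26, adjusted p = 3.1e-07), SMPDL3A, a phosphodiesterase gene (1.35), and PLTP, the phospholipid transfer protein gene (0.78).

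Of 22 genes for sterol esters, oxysterols and other handling, 9 rose and 4 fell. TMEM97, a regulator of NPC1, rose most (log2 fold change 2.28 ± 0.08, adjusted p = 1.3e-16), followed by the oxysterol hydroxylase genes CYP7B1 (1.40) and CYP39A1 (1.27). CYP27A1, which makes an oxysterol in mitochondria, fell (log2 fold change -1.51 ± 0.15, adjusted p = 4.7e-09), as did the sterol carrier genes OSBP (-0.64) and GRAMD1A (-0.60). Of 6 other lipoprotein receptors 2 rose and 3 fell. VLDLR, the very-low-density lipoprotein receptor gene, averaged 18.1 ± 1.14 CPM in RA-CHIR/BMP4 and 195 ± 40.4 CPM in day 9 RA libraries (SD, n = 3 each). That fall was the steepest of the list (log2 fold change -3.41 ± 0.13, adjusted p = 1.8e-14), with smaller falls of SORL1 (-0.59) and LRP1 (-0.34). CUBN (1.90) and LRP2 (1.14), endocytic receptor genes, rose.

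Markers of other cell types moved with these differences. The 5 cardiac markers (MYH6, MYL7, TNNT2, ACTC1 and MYBPC3) summed to 20.4 to 28.8 CPM in RA-CHIR/BMP4, against 3294 to 4559 CPM in day 9 RA libraries, and 6 mesenchyme markers to 289 to 328, against 2283 to 3474 CPM. The 6 cell cycle genes summed to 1648 to 1708, against 944 to 1095 CPM. The 7 liver markers (among them AFP and APOA1) summed to 86.2 to 97.4, against 120.2 to 169.8 CPM, with APOC3 at 0 in day 9 RA libraries. MYBPC3 was at 0 in RA-CHIR/BMP4 libraries, and none of the other cardiac, mesenchyme or cell cycle genes was at 0 in either group. The part of these cells in the results for SC5D, NPC1, VLDLR and the other genes was not tested.

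RA-CHIR/BMP4 was next set against CHIR/BMP4, which asks what an RA pulse left behind in cells that then had the same CHIR99021 and BMP4. Of the mevalonate arm 3 genes were higher after RA, led by ACAT2 and IDI1 at 1.65- and 1.64-fold, and HMGCS1 was 1.43-fold higher. ABCG1 was 5.79-fold higher, while SC5D was 1.87-fold and ABCA1 1.67-fold lower. Among the members 9 rose and 5 fell, against a background of 21.2% and 22.1% of all tested genes, and their median log2 fold change was 0.06, against -0.01. With deposited TPM in place of TMM-scaled counts, 10 members rose and 2 fell, and the split over all genes was 3960 higher to 2408 lower, in place of 3292 to 3437. Without replicate 1 of RA-CHIR/BMP4, 3 members fell.

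Of the 7 mevalonate genes 3 rose and 0 fell (median 0.29). ACAT2, whose enzyme joins acetyl-CoA units, had 57.6, 53.3 and 60.9 CPM in RA-CHIR/BMP4 libraries, against 33.8, 30.6 and 39.1 CPM in CHIR/BMP4 libraries. All values after RA were higher (log2 fold change 0.72 ± 0.10, adjusted p = 2.3e-06). IDI1 had 69.8, 66.5 and 62.8 CPM in RA-CHIR/BMP4 libraries, against 35.7, 44.4 and 41.7 CPM in CHIR/BMP4 libraries. Here too the groups did not overlap (log2 fold change 0.72 ± 0.09, adjusted p = 7.5e-07). HMGCS1 had 179, 146 and 158 CPM in RA-CHIR/BMP4 libraries, against 92.3, 126 and 120.0 CPM in CHIR/BMP4 libraries. HMGCS1 was higher in each library (log2 fold change 0.52 ± 0.12, adjusted p = 0.0021). MVK, PMVK, MVD and FDPS, the farnesyl diphosphate synthase gene, lay between -0.19 and 0.29 and did not pass.

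Of the 11 squalene and sterol genes 4 rose and 2 fell (1 on TPM). SQLE had 136, 119.9 and 138 CPM in RA-CHIR/BMP4 libraries, against 81.8, 94.4 and 96.0 CPM in CHIR/BMP4 libraries. SQLE was higher without overlap (log2 fold change 0.53 ± 0.08, adjusted p = 1.5e-05). DHCR7 had 110.3, 95.7 and 116 CPM in RA-CHIR/BMP4 libraries, against 71.2, 64.1 and 75.4 CPM in CHIR/BMP4 libraries. DHCR7 was also higher without overlap (log2 fold change 0.60 ± 0.09, adjusted p = 1.4e-05). SC5D had 74.0, 75.6 and 73.0 CPM in RA-CHIR/BMP4 libraries, against 136, 137 and 143 CPM in CHIR/BMP4 libraries. Its values were lower after RA (log2 fold change -0.90 ± 0.12, adjusted p = 7e-06). TM7SF2 had 34.3, 34.6 and 38.9 CPM in RA-CHIR/BMP4 libraries, against 41.8, 43.6 and 46.4 CPM in CHIR/BMP4 libraries. The groups lay apart, but the call (log2 fold change -0.30 ± 0.11, adjusted p = 0.036) ended without replicate 1 or 2 of RA-CHIR/BMP4 (adjusted p = 0.14 and 0.1) or replicate 2 or 3 of CHIR/BMP4 (adjusted p = 0.058 and 0.13), and with TPM (adjusted p = 0.22). HSD17B7 rose (log2 fold change 0.48 ± 0.12, adjusted p = 0.0015), and MSMO1 (log2 fold change 0.29 ± 0.11, adjusted p = 0.03) did so only with replicate 1 of RA-CHIR/BMP4 and replicates 1 and 3 of CHIR/BMP4 in the fit (adjusted p = 0.14, 0.22 and 0.053 without each), and without replicate 1 of CHIR/BMP4 its log2 fold change was 0.17. The other 5 genes of the arm lay between -0.08 (NSDHL) and 0.09 (EBP) and did not pass.

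None of the 5 sensors and regulators passed, and on TPM 1 rose. INSIG1 had 20.5, 16.2 and 18.2 CPM in RA-CHIR/BMP4 libraries, against 15.5, 21.1 and 21.2 CPM in CHIR/BMP4 libraries. SREBF1 had 47.9, 51.2 and 52.1 CPM in RA-CHIR/BMP4 libraries, against 59.2, 45.7 and 51.3 CPM in CHIR/BMP4 libraries. Both overlapped (log2 fold change -0.06 ± 0.14, adjusted p = 0.76 for INSIG1 and log2 fold change -0.06 ± 0.16, adjusted p = 0.81 for SREBF1). SREBF2 had 266, 271 and 269 CPM in RA-CHIR/BMP4 libraries, against 235, 232 and 237 CPM in CHIR/BMP4 libraries. These values did not overlap, and the difference missed the threshold (log2 fold change 0.19 ± 0.08, adjusted p = 0.06). SCAP and INSIG2 lay at 0.04 and -0.16.

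Of the transport genes 1 rose and 2 fell (0 on TPM). STARD4 had 46.2, 51.0 and 40.9 CPM in RA-CHIR/BMP4 libraries, against 26.1, 38.6 and 30.4 CPM in CHIR/BMP4 libraries. STARD4 was higher after RA in all libraries (log2 fold change 0.56 ± 0.13, adjusted p = 0.0019). SCARB1 had 23.7, 28.2 and 26.2 CPM in RA-CHIR/BMP4 libraries, against 36.3, 35.0 and 35.1 CPM in CHIR/BMP4 libraries. SCARB1 was lower without overlap (log2 fold change -0.46 ± 0.14, adjusted p = 0.013), but not past the threshold without replicate 1 of RA-CHIR/BMP4 (adjusted p = 0.08) or with TPM (adjusted p = 0.13). NPC2 had 54.9, 57.4 and 52.8 CPM in RA-CHIR/BMP4 libraries, against 69.0, 65.3 and 70.9 CPM in CHIR/BMP4 libraries. NPC2 was lower in each library (log2 fold change -0.31 ± 0.09, adjusted p = 0.0051), and with TPM the adjusted p was 0.07. NPC1 had 59.1, 63.6 and 56.6 CPM in RA-CHIR/BMP4 libraries, against 62.6, 58.4 and 59.5 CPM in CHIR/BMP4 libraries. Its values overlapped (log2 fold change -0.01 ± 0.07, adjusted p = 0.93).

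ABCA1 had 72.8, 84.2 and 71.5 CPM in RA-CHIR/BMP4 libraries, against 139, 136 and 107 CPM in CHIR/BMP4 libraries. ABCA1 was lower after RA in each library (log2 fold change -0.74 ± 0.11, adjusted p = 1.4e-05). ABCG1 had 2.68, 2.21 and 3.17 CPM in RA-CHIR/BMP4 libraries, against 0.507, 0.333 and 0.466 CPM in CHIR/BMP4 libraries, from 22 to 56 counts in the first group and 3 to 9 in the second. ABCG1 was higher in each library (log2 fold change 2.53 ± 0.34, adjusted p = 2.4e-06).

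Among the neighbouring lists, 7 of 14 fatty acid genes rose and 4 fell. GPAM, ACLY, the ATP citrate lyase gene, and ELOVL5, an elongase gene, rose most (0.46, 0.46 and 0.45), and ME1, ACSL3 and ACSS2 fell most (-0.89, -0.87 and -0.58). In the liver X receptor list 1 of 6 rose, MYLIP (log2 fold change 0.65 ± 0.20, adjusted p = 0.013), and 0 fell. Of 22 genes for sterol handling 4 rose, led by SOAT1, the sterol esterification gene (0.63), TMEM97 (0.56) and CYP7B1 (0.44). In that list 7 fell, led by GRAMD1B (-1.19), GRAMD1C (-0.74) and NCEH1 (-0.63). LRP2 averaged 84.5 ± 6.41 CPM after RA and 22.5 ± 3.86 CPM without it (SD, n = 3 each) and rose (log2 fold change 1.92 ± 0.26, adjusted p = 4.2e-05). VLDLR (log2 fold change -2.27 ± 0.13, adjusted p = 3.3e-11), SORL1 (-1.29) and LRP1 (-0.75) fell. Mesenchyme markers summed to 289 to 328 CPM in RA-CHIR/BMP4, against 1049 to 1318 CPM in CHIR/BMP4 libraries, with none of the 6 at 0, and cardiac markers to 20.4 to 28.8, against 22.3 to 34.0 CPM, with MYBPC3 at 0 in both. Endothelial markers summed to 53.3 to 66.5, against 94.3 to 139.8 CPM, with none of the 5 at 0, and cell cycle genes to 1648 to 1708, against 1505 to 1578 CPM. Their part in these results was not tested.

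Day 9 RA was then set against day 6 RA, 3 days after the RA pulse against its end. Of 18 synthesis genes 10 were higher at the later day and 1 lower, and both exporters were lower. SC5D was 4.62-fold higher, IDI1 1.81-fold and HMGCS1 1.77-fold. ABCG1 was 4.71-fold, INSIG1 3.12-fold and ABCA1 2.55-fold lower. Of the 29 members 16 rose and 6 fell, against 28.5% and 30.3% of all tested genes, and their median log2 fold change was 0.35, against -0.03. The share that rose, 55.2%, was above the background share of this comparison.

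Of the 7 mevalonate genes 5 rose and 0 fell (median 0.41), or 1 with upper-quartile factors or TPM. HMGCS1 had 165, 149 and 153 CPM in day 9 RA libraries, against 104, 81.9 and 77.3 CPM in day 6 RA libraries. Every day 9 value was higher (log2 fold change 0.82 ± 0.13, adjusted p = 1.8e-05). IDI1 had 63.2, 57.3 and 52.8 CPM in day 9 RA libraries, against 35.1, 28.9 and 31.6 CPM in day 6 RA libraries. IDI1 was higher without overlap (log2 fold change 0.86 ± 0.10, adjusted p = 5.8e-08). MVD, the decarboxylase gene of the arm (0.48), FDPS (0.41) and ACAT2 (0.39) rose as well, and MVK (0.19) and PMVK (-0.24) did not pass.

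Of the 11 squalene and sterol genes 5 rose and 1 fell. SC5D had 440.2, 466 and 341 CPM in day 9 RA libraries, against 87.8, 90.4 and 92.0 CPM in day 6 RA libraries. The lowest day 9 value was above the highest day 6 value (log2 fold change 2.21 ± 0.12, adjusted p = 1.5e-11). CYP51A1 had 1.76, 1.67 and 1.44 CPM in day 9 RA libraries, against 0.662, 0.981 and 0.708 CPM in day 6 RA libraries, from 11 to 16 counts in the first group and 5 to 12 in the second. CYP51A1 was higher without overlap (log2 fold change 0.99 ± 0.34, adjusted p = 0.015), and without replicate 1 of day 6 RA the adjusted p was 0.056. LSS (log2 fold change 0.66 ± 0.10, adjusted p = 7.6e-06), NSDHL (0.50) and MSMO1 (0.35) rose too. DHCR7 had 64.5, 59.7 and 64.4 CPM in day 9 RA libraries, against 108, 113 and 123 CPM in day 6 RA libraries. DHCR7 was the sterol arm gene that fell (log2 fold change -0.87 ± 0.10, adjusted p = 5.6e-08). SQLE had 98.7, 107 and 99.3 CPM in day 9 RA libraries, against 107, 94.2 and 90.3 CPM in day 6 RA libraries. Its groups overlapped (log2 fold change 0.06 ± 0.09, adjusted p = 0.55). FDFT1, TM7SF2, HSD17B7 and EBP lay between -0.17 and 0.05 and did not pass.

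All 5 sensors and regulators passed, 2 higher and 3 lower. INSIG1 had 12.0, 10.5 and 9.56 CPM in day 9 RA libraries, against 38.7, 33.8 and 26.3 CPM in day 6 RA libraries. The 3 day 9 values were well below the 3 day 6 values (log2 fold change -1.64 ± 0.15, adjusted p = 2.7e-09). SREBF1 had 51.8, 65.7 and 53.4 CPM in day 9 RA libraries, against 84.0, 95.7 and 89.0 CPM in day 6 RA libraries. SREBF1 was lower without overlap (log2 fold change -0.65 ± 0.16, adjusted p = 0.0029). SREBF2 had 266, 269 and 258 CPM in day 9 RA libraries, against 202, 213 and 229.8 CPM in day 6 RA libraries. SREBF2 was higher by a smaller margin (log2 fold change 0.30 ± 0.08, adjusted p = 0.0035). INSIG2 rose (log2 fold change 0.79 ± 0.15, adjusted p = 0.00012) and SCAP fell (log2 fold change -0.26 ± 0.07, adjusted p = 0.0027).

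All 4 transport genes rose. SCARB1 had 45.9, 34.8 and 36.1 CPM in day 9 RA libraries, against 15.7, 22.1 and 28.0 CPM in day 6 RA libraries. Replicate 1 was the highest of the later day (log2 fold change 0.83 ± 0.15, adjusted p = 6.7e-05). NPC1 had 93.2, 95.0 and 84.8 CPM in day 9 RA libraries, against 59.3, 56.2 and 59.2 CPM in day 6 RA libraries. NPC1 was higher without overlap (log2 fold change 0.65 ± 0.07, adjusted p = 4e-08). STARD4 (0.58) and NPC2 (0.36) followed. Both exporters fell. ABCA1 had 130.4, 158 and 162 CPM in day 9 RA libraries, against 369, 397 and 383 CPM in day 6 RA libraries. No value overlapped (log2 fold change -1.35 ± 0.11, adjusted p = 8.9e-10). ABCG1 had 0.481, 1.04 and 0.889 CPM in day 9 RA libraries, against 3.75, 4.90 and 3.11 CPM in day 6 RA libraries, from 3 to 10 counts in the first group and 22 to 60 in the second. ABCG1 was lower in each library (log2 fold change -2.24 ± 0.33, adjusted p = 3.9e-06).

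More genes fell than rose in each of the 4 neighbouring lists, where of all tested genes 28.5% rose and 30.3% fell. In the fatty acid list 2 of 14 rose and 10 fell (median -0.50). ELOVL5 (log2 fold change -1.93 ± 0.15, adjusted p = 4.8e-09), ELOVL6 (-1.60) and MID1IP1, an activator of acetyl-CoA carboxylase (-1.48), fell most, and ME1 (1.74) and ACSS2 (1.24) rose. MYLIP averaged 3.38 ± 0.308 CPM in day 9 RA and 55.6 ± 14.1 CPM in day 6 RA libraries (SD, n = 3 each). It was the steepest of 3 falls among 6 liver X receptor genes and targets (log2 fold change -4.03 ± 0.24, adjusted p = 2e-11), with SMPDL3A (-1.35) and PLTP (-0.96), and 0 rose. Of 22 sterol handling genes 6 rose, led by CYP46A1 (1.28), NCEH1 (0.78) and CYP27A1 (0.65), and 12 fell, led by SOAT2, CYP39A1 (-1.61) and GRAMD1B (-1.55). SOAT2, a sterol esterification gene of liver and gut, had 2 counts in the 3 day 9 RA libraries together and 65 in the 3 day 6 RA libraries, so no fold is given. Of 6 other lipoprotein receptors 1 rose, VLDLR (log2 fold change 2.21 ± 0.12, adjusted p = 5.5e-12), and 4 fell, with LRP2 (-3.15), CUBN (-1.87) and LRP8 (-1.59) in the lead.

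Markers of other cells moved here as well. Cardiac markers summed to 3294 to 4559 CPM in day 9 RA, against 46.2 to 60.5 CPM in day 6 RA libraries, and mesenchyme markers to 2283 to 3474, against 424 to 589 CPM, with none of either list at 0. Liver markers summed to 120.2 to 169.8, against 369 to 430.1 CPM, with APOC3 at 0 in day 9 RA libraries. Cell cycle genes summed to 944 to 1095, against 1451 to 1584 CPM, endothelial markers to 63.4 to 77.6, against 86.4 to 134 CPM, and 3 pluripotency markers (POU5F1, NANOG and DPPA4) to 5.45 to 7.94, against 46.6 to 53.5 CPM, with none of these lists at 0. Their part in the results was not tested.

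**Figure D3:**
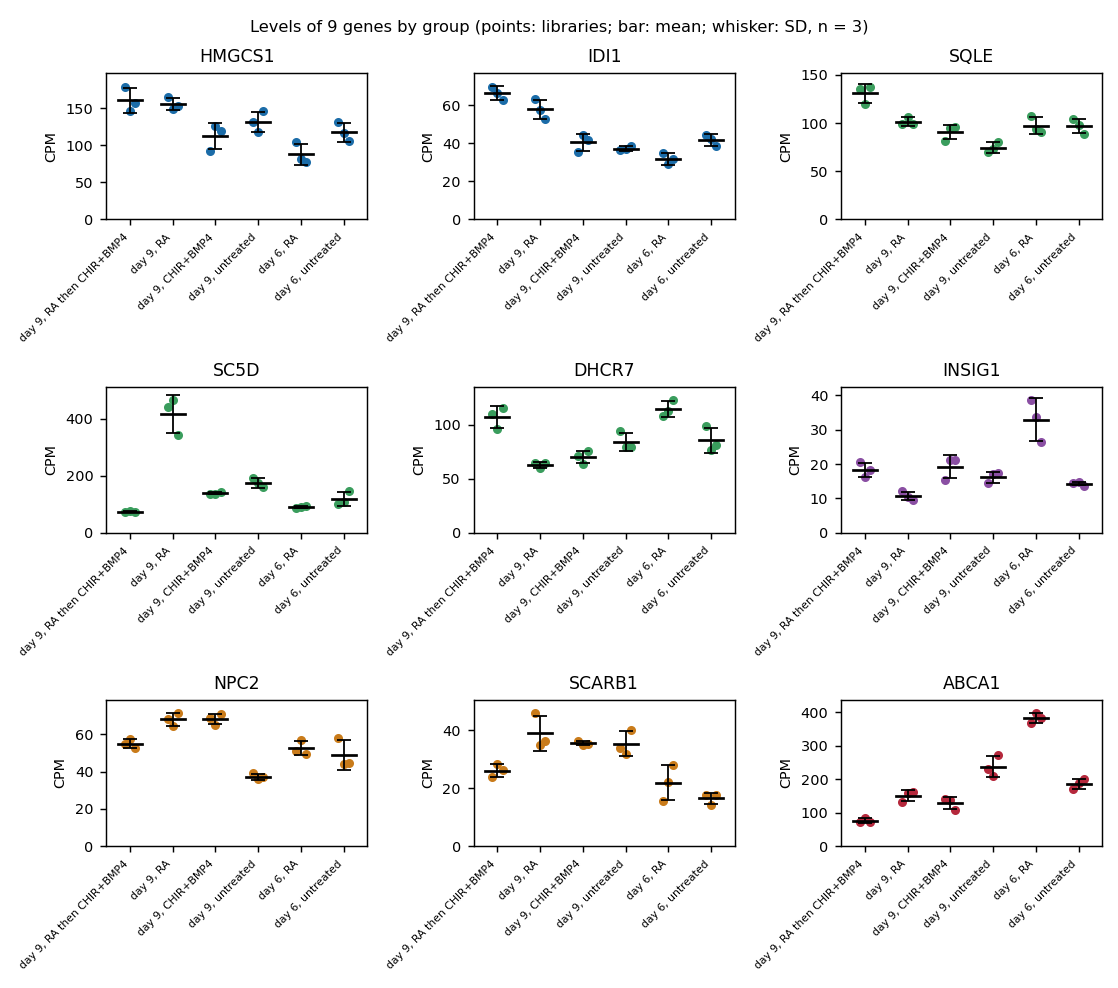
CPM (y axis) of 9 of the genes in each library of the 6 groups (x axis), with points for libraries, a bar for the mean and a whisker for the SD (n = 3). SC5D averaged 416 ± 65.9 CPM in day 9 RA libraries, above every other group, and ABCA1 and INSIG1 were highest in day 6 RA libraries, at 383 ± 14.1 and 32.9 ± 6.24 CPM.

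Day 9 RA was set against untreated day 9, which asks what remained of the RA pulse after 3 days without further factors. Here and in the comparisons with untreated libraries below, RA, or CHIR99021 with BMP4, cannot be told apart from the difference in kind of library. SC5D was 2.37-fold higher, NPC2 1.81-fold and NPC1 1.65-fold, and MVK was 2.02-fold and ABCA1 1.57-fold lower. Across the list 11 rose and 7 fell, against 32.5% higher and 32.5% lower among all tested genes, and their median log2 fold change was 0.15, against -0.02. On TPM the median of all genes was 0.256, and 20 members rose and 4 fell, where all genes split 7642 higher to 2788 lower in place of 5054 to 5051. With upper-quartile factors 9 members rose and 9 fell, with a median of 0.05, and all genes split 4394 to 5864.

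In the mevalonate arm 3 of 7 genes rose (5 on TPM) and 2 fell. MVD had 39.0, 33.0 and 43.2 CPM in day 9 RA libraries, against 26.9, 19.9 and 24.7 CPM in untreated day 9 libraries. MVD was higher in each library (log2 fold change 0.66 ± 0.14, adjusted p = 0.00033). IDI1 had 63.2, 57.3 and 52.8 CPM in day 9 RA libraries, against 36.3, 36.8 and 38.7 CPM in untreated day 9 libraries. IDI1 was higher without overlap (log2 fold change 0.63 ± 0.10, adjusted p = 4e-06), and ACAT2 rose (0.40). MVK had 12.5, 9.61 and 12.6 CPM in day 9 RA libraries, against 22.8, 19.1 and 27.8 CPM in untreated day 9 libraries. All values after RA were lower (log2 fold change -1.01 ± 0.15, adjusted p = 2.2e-06). PMVK, the next kinase gene, had 8.18, 8.98 and 9.67 CPM in day 9 RA libraries, against 13.5, 14.0 and 12.4 CPM in untreated day 9 libraries. PMVK was lower as well (log2 fold change -0.57 ± 0.13, adjusted p = 0.00055). HMGCS1 had 165, 149 and 153 CPM in day 9 RA libraries, against 132, 118 and 146 CPM in untreated day 9 libraries. The groups did not overlap, but the difference did not pass (log2 fold change 0.24 ± 0.12, adjusted p = 0.1), nor did FDPS (0.15).

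Of the 11 squalene and sterol genes 6 rose (4 with upper-quartile factors and 7 on TPM) and 3 fell (1 on TPM). SC5D had 440.2, 466 and 341 CPM in day 9 RA libraries, against 193, 173 and 159 CPM in untreated day 9 libraries. SC5D was higher without overlap (log2 fold change 1.24 ± 0.12, adjusted p = 2.9e-08). SQLE had 98.7, 107 and 99.3 CPM in day 9 RA libraries, against 69.8, 73.4 and 80.4 CPM in untreated day 9 libraries. SQLE was higher in all 3 libraries (log2 fold change 0.46 ± 0.09, adjusted p = 8e-05). NSDHL (0.61) and FDFT1 (0.28) rose too. MSMO1 (log2 fold change 0.29 ± 0.11, adjusted p = 0.022) and LSS (log2 fold change 0.26 ± 0.10, adjusted p = 0.028) passed only narrowly: the MSMO1 call ended without replicate 3 of day 9 RA or replicate 1 of untreated day 9 (adjusted p = 0.059 and 0.13), and the LSS call without replicate 2 or 3 of either group (adjusted p between 0.057 and 0.12). HSD17B7 had 9.95, 8.46 and 9.00 CPM in day 9 RA libraries, against 14.8, 13.8 and 13.3 CPM in untreated day 9 libraries. HSD17B7 was lower without overlap (log2 fold change -0.64 ± 0.13, adjusted p = 0.00012). DHCR7 (log2 fold change -0.43 ± 0.10, adjusted p = 0.00051) and EBP (log2 fold change -0.37 ± 0.11, adjusted p = 0.0051) fell, with adjusted p of 0.53 and 0.92 on TPM, and the EBP call ended without replicate 1 of untreated day 9 (adjusted p = 0.061). CYP51A1 (-0.50) and TM7SF2 (0.01) did not pass.

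Of the 5 regulators only INSIG1 passed, and of the exporters only ABCA1. With upper-quartile factors 3 regulators fell and 0 rose, and on TPM 0 fell and 4 rose. Of the transport genes 2 rose, and 4 on TPM. INSIG1 had 12.0, 10.5 and 9.56 CPM in day 9 RA libraries, against 14.3, 17.0 and 17.3 CPM in untreated day 9 libraries. INSIG1 was lower without overlap (log2 fold change -0.58 ± 0.16, adjusted p = 0.0035), with an adjusted p of 0.17 on TPM. SREBF1 had 51.8, 65.7 and 53.4 CPM in day 9 RA libraries, against 71.7, 43.9 and 40.4 CPM in untreated day 9 libraries. SREBF2 had 266, 269 and 258 CPM in day 9 RA libraries, against 283, 287 and 278 CPM in untreated day 9 libraries. SREBF1 overlapped and SREBF2 did not, and neither passed (log2 fold change 0.08 ± 0.17, adjusted p = 0.7 for SREBF1 and log2 fold change -0.10 ± 0.08, adjusted p = 0.33 for SREBF2), and on TPM SREBF2 and SCAP turned to called rises of 0.23 and 0.19. NPC1 had 93.2, 95.0 and 84.8 CPM in day 9 RA libraries, against 57.4, 52.9 and 54.3 CPM in untreated day 9 libraries. NPC1 was higher without overlap (log2 fold change 0.72 ± 0.07, adjusted p = 6.7e-09). NPC2 had 68.0, 64.6 and 71.4 CPM in day 9 RA libraries, against 39.0, 35.9 and 37.0 CPM in untreated day 9 libraries. NPC2 was higher by more (log2 fold change 0.86 ± 0.09, adjusted p = 2.9e-08). SCARB1 had 45.9, 34.8 and 36.1 CPM in day 9 RA libraries, against 33.9, 31.8 and 40.1 CPM in untreated day 9 libraries. Its values overlapped (log2 fold change 0.14 ± 0.14, adjusted p = 0.41). ABCA1 had 130.4, 158 and 162 CPM in day 9 RA libraries, against 229, 209 and 272 CPM in untreated day 9 libraries. ABCA1 was lower in each library (log2 fold change -0.65 ± 0.11, adjusted p = 2.2e-05). ABCG1 had 0.481, 1.04 and 0.889 CPM in day 9 RA libraries, against 0.603, 0.681 and 1.38 CPM in untreated day 9 libraries, from 3 to 15 counts. Its values overlapped (log2 fold change 0.13 ± 0.43, adjusted p = 0.81). STARD4 (0.18) and INSIG2 (0.22) did not pass.

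Among the neighbours, 4 of 14 fatty acid genes rose and 6 fell, with ACSL3 (0.70), ACSS2 (0.67) and ACLY (0.51) higher and ELOVL6 (-1.26), LPIN1 (-0.94) and SCD (-0.77) lower. Of 6 liver X receptor genes and targets 0 rose and 2 fell, SMPDL3A (-2.20) and NR1H3, a receptor gene (-0.53). GRAMD1B, which carries cholesterol from the plasma membrane, averaged 7.52 ± 0.721 CPM in day 9 RA and 114 ± 8.71 CPM in untreated day 9 libraries (SD, n = 3 each). It had the steepest of 7 falls in the sterol handling list (log2 fold change -3.94 ± 0.09, adjusted p = 5e-19), before TMEM97 (-1.69) and ERLIN1 (-1.33), and CYP27A1 (0.79) and GRAMD1A (0.58) led 5 rises. LRP2 rose (1.31) and CUBN (-0.83), LRP1 (-0.71) and SORL1 (-0.50) fell. Cardiac markers summed to 3294 to 4559 CPM in day 9 RA, against 71.5 to 134 CPM in untreated day 9 libraries (MYBPC3 at 0 in untreated day 9), mesenchyme markers to 2283 to 3474, against 685 to 1137 CPM (none at 0), and cell cycle genes to 944 to 1095, against 1785 to 1812 CPM. Liver markers summed to 120.2 to 169.8, against 5.11 to 11.5 CPM, with APOC3 at 0 in both, and pluripotency markers to 5.45 to 7.94, against 8.99 to 13.9 CPM, with none at 0. Their part in the results was not tested.

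Day 6 RA was set against untreated day 6, the end of the RA pulse. INSIG1 was 2.33-fold and ABCA1 2.06-fold higher, and SREBF1 1.64-fold, while 5 of 7 mevalonate genes were lower, with ACAT2 1.45-fold and HMGCS1 1.34-fold below untreated. Of the 29 members 5 rose and 10 fell, against 25.3% and 23.4% of all tested genes, and the median log2 fold change was -0.09, against 0.00. This split turned round on TPM, where 12 members rose and 4 fell and all genes split 6219 higher to 2111 lower in place of 3929 to 3642, with a median of 0.112 over the members and 0.174 over all genes.

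In the mevalonate arm 0 genes rose and 5 of 7 fell (median -0.39, and -0.18 on TPM, where 1 rose and 1 fell). MVK had 8.61, 9.89 and 12.0 CPM in day 6 RA libraries, against 16.2, 14.3 and 14.3 CPM in untreated day 6 libraries. MVK was lower without overlap (log2 fold change -0.57 ± 0.16, adjusted p = 0.0042), with an adjusted p of 0.12 on TPM. ACAT2 had 39.2, 38.1 and 40.9 CPM in day 6 RA libraries, against 62.5, 57.1 and 51.2 CPM in untreated day 6 libraries. ACAT2 was lower in each library (log2 fold change -0.53 ± 0.10, adjusted p = 0.00014). HMGCS1 had 104, 81.9 and 77.3 CPM in day 6 RA libraries, against 131, 117 and 105 CPM in untreated day 6 libraries. The groups did not overlap (log2 fold change -0.42 ± 0.13, adjusted p = 0.011), but the call ended without replicate 2 or 3 of day 6 RA (adjusted p = 0.053 and 0.057) or replicate 1 of untreated day 6 (adjusted p = 0.063), and on TPM (adjusted p = 0.2). IDI1 (-0.39) and FDPS (-0.33) fell, with adjusted p of 0.14 and 0.24 on TPM, and PMVK (0.12) and MVD (-0.17) did not pass.

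Of the 11 squalene and sterol genes 2 rose and 5 fell (median -0.20), and on TPM 2 rose and 3 fell (median 0.00775). DHCR7 had 108, 113 and 123 CPM in day 6 RA libraries, against 98.5, 77.0 and 80.9 CPM in untreated day 6 libraries. DHCR7 was higher without overlap (log2 fold change 0.42 ± 0.10, adjusted p = 0.00081). FDFT1 had 138, 118 and 138 CPM in day 6 RA libraries, against 115, 104 and 96.2 CPM in untreated day 6 libraries. FDFT1 was higher in all 3 libraries (log2 fold change 0.32 ± 0.08, adjusted p = 0.0025). LSS had 80.0, 74.0 and 85.8 CPM in day 6 RA libraries, against 133, 99.6 and 124 CPM in untreated day 6 libraries. LSS was lower without overlap (log2 fold change -0.58 ± 0.10, adjusted p = 6.5e-05). EBP had 21.9, 19.0 and 18.8 CPM in day 6 RA libraries, against 30.8, 25.5 and 25.5 CPM in untreated day 6 libraries. EBP was lower in each library (log2 fold change -0.46 ± 0.11, adjusted p = 0.0012). CYP51A1 had 0.662, 0.981 and 0.708 CPM in day 6 RA libraries, against 1.88, 0.955 and 1.82 CPM in untreated day 6 libraries, from 5 to 12 counts in the first group and 6 to 17 in the second. The groups overlapped, and the call (log2 fold change -0.97 ± 0.34, adjusted p = 0.022) ended without replicate 1 or 3 of either group (adjusted p between 0.054 and 0.11).

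SQLE had 107, 94.2 and 90.3 CPM in day 6 RA libraries, against 104, 98.2 and 88.9 CPM in untreated day 6 libraries. SQLE overlapped and did not pass (log2 fold change 0.01 ± 0.09, adjusted p = 0.96). TM7SF2 fell (-0.41), and SC5D fell (log2 fold change -0.40 ± 0.12, adjusted p = 0.013) except without replicate 3 of untreated day 6 (log2 fold change -0.22, adjusted p = 0.1), and on TPM neither passed (adjusted p = 0.14 and 0.29). MSMO1, NSDHL and HSD17B7 lay between -0.20 and -0.10 and did not pass.

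INSIG1 had 38.7, 33.8 and 26.3 CPM in day 6 RA libraries, against 14.3, 14.6 and 13.7 CPM in untreated day 6 libraries. The day 6 RA values were all above the untreated ones (log2 fold change 1.22 ± 0.15, adjusted p = 3.5e-07). SREBF1 had 84.0, 95.7 and 89.0 CPM in day 6 RA libraries, against 59.0, 50.5 and 54.8 CPM in untreated day 6 libraries. SREBF1 was higher without overlap (log2 fold change 0.71 ± 0.17, adjusted p = 0.0022). SREBF2 had 202, 213 and 229.8 CPM in day 6 RA libraries, against 255, 233 and 183 CPM in untreated day 6 libraries. SREBF2 overlapped (log2 fold change -0.06 ± 0.08, adjusted p = 0.61), and SCAP (0.10) and INSIG2 (0.28) did not pass. On TPM 4 of these 5 regulators rose, in place of 2. No transport gene passed, while on TPM 3 of 4 rose (median 0.35 in place of 0.17). NPC1 had 59.3, 56.2 and 59.2 CPM in day 6 RA libraries, against 64.7, 60.3 and 60.0 CPM in untreated day 6 libraries. SCARB1 had 15.7, 22.1 and 28.0 CPM in day 6 RA libraries, against 17.7, 14.2 and 17.5 CPM in untreated day 6 libraries. NPC1 did not overlap and SCARB1 did (log2 fold change -0.09 ± 0.07, adjusted p = 0.35 for NPC1 and log2 fold change 0.39 ± 0.16, adjusted p = 0.055 for SCARB1), and STARD4 (0.24) and NPC2 (0.11) were small. ABCA1 had 369, 397 and 383 CPM in day 6 RA libraries, against 171, 187 and 199 CPM in untreated day 6 libraries. ABCA1 was higher without overlap (log2 fold change 1.04 ± 0.11, adjusted p = 7.4e-08). ABCG1 had 3.75, 4.90 and 3.11 CPM in day 6 RA libraries, against 3.08, 2.71 and 1.93 CPM in untreated day 6 libraries. ABCG1 did not overlap and missed the threshold (log2 fold change 0.66 ± 0.28, adjusted p = 0.054), which both exporters passed on TPM.

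In the neighbouring lists 7 of 14 fatty acid genes rose and 3 fell. ELOVL5 (log2 fold change 2.13 ± 0.15, adjusted p = 3.3e-09), MID1IP1 (1.73) and SCD (0.81) rose most, and ME1 (-0.76), ACSL3 (-0.44) and LPIN1 (-0.36) fell. Of 6 liver X receptor genes and targets 2 rose, MYLIP and PLTP (0.84), and 1 fell, SMPDL3A (-2.02). MYLIP averaged 55.6 ± 14.1 CPM in day 6 RA and 6.63 ± 2.78 CPM in untreated day 6 libraries (SD, n = 3 each; log2 fold change 3.13 ± 0.22, adjusted p = 5.1e-10). In the sterol handling list 10 of 22 rose, with SOAT2 at 65 counts in the first group and 1 in the second, GRAMD1C at 2.33 and CYP39A1 at 1.48. GRAMD1B (log2 fold change -3.45 ± 0.08, adjusted p = 6.2e-20) and OSBP (-0.34) led 4 falls. LRP2 (1.42), CUBN (1.24) and SORL1 (0.71) led 4 rises among lipoprotein receptors, and VLDLR fell (-1.84). Liver markers summed to 369 to 430.1 CPM in day 6 RA, against 17.7 to 36.9 CPM in untreated day 6 libraries, with APOC3 at 0 in untreated day 6. Cardiac markers summed to 46.2 to 60.5, against 103 to 158 CPM, endothelial markers to 86.4 to 134, against 167 to 271 CPM, mesenchyme markers to 424 to 589, against 634 to 717 CPM, and cell cycle genes to 1451 to 1584, against 1654 to 1737 CPM, with none of these lists at 0. The part of any of these in the results was not tested.

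**Figure D4:**
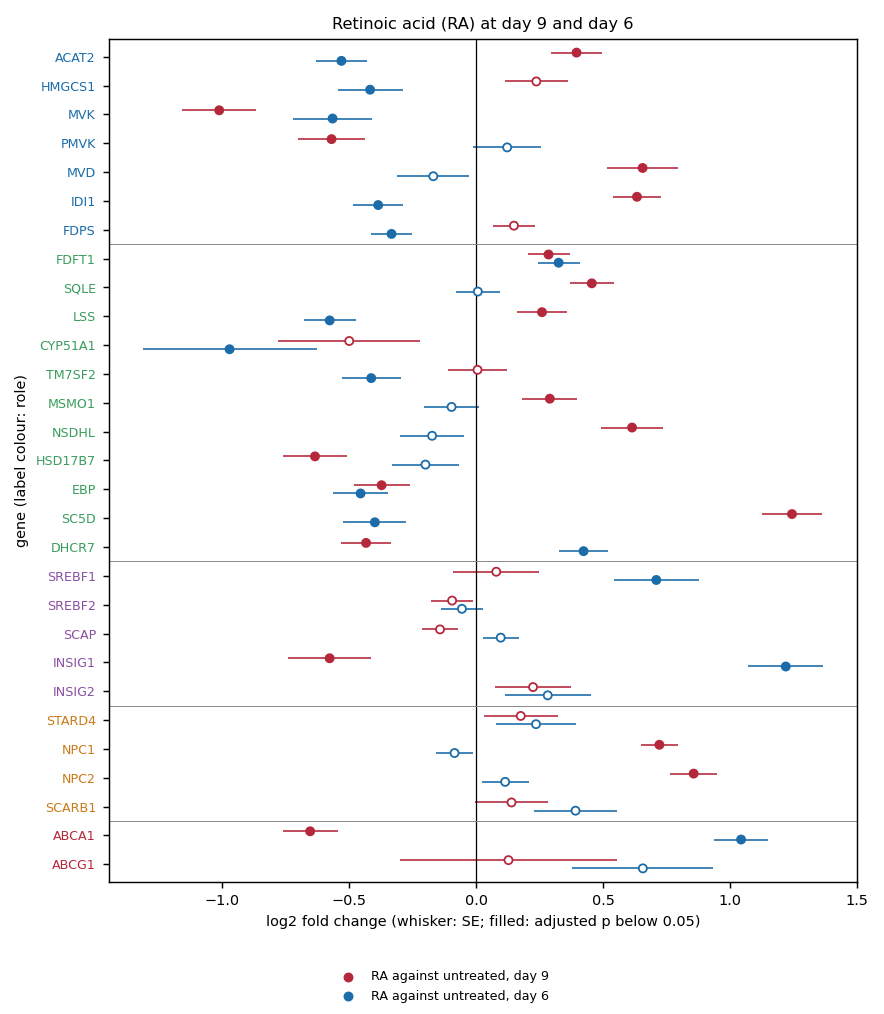
Log2 fold change (x axis) of the 29 genes (y axis, ordered by role) for RA against untreated at day 9 (red) and day 6 (blue), with SE whiskers and filled points where adjusted p was below 0.05. INSIG1 and ABCA1 lay at -0.58 and -0.65 at day 9 and at 1.22 and 1.04 at day 6. With TPM scaling the median of all genes was 0.256 at day 9 and 0.174 at day 6, and SREBF2 and SCAP turned positive at day 9.

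The RA response of the members differed between the days. INSIG1, ABCA1 and DHCR7 were the 3 genes called lower at day 9 and higher at day 6. ACAT2, IDI1, LSS and SC5D were the 4 called higher at day 9 and lower at day 6. MVK and EBP fell at both days, and FDFT1 rose at both. The difference itself, day 9 minus day 6, was tested as an interaction (its log2 fold changes are differences of log2 fold changes): 13 members were higher and 7 lower, against 24.9% and 26% of all tested genes, with a median of 0.08, against -0.04. With upper-quartile scaling the members' median fell just below 0 (-0.00137). On TPM 13 were higher and 4 lower, and all genes split 4739 to 3327 in place of 3862 to 4044. The number lower was also 4 without replicate 3 of day 9 RA, day 6 RA or untreated day 6, or without replicate 1 of untreated day 9. In the mevalonate arm 5 of 7 were higher and 1 lower (2 with upper-quartile factors; median 0.66), led by IDI1 (log2 fold change 1.02 ± 0.14, adjusted p = 1.7e-06) and ACAT2 (log2 fold change 0.93 ± 0.14, adjusted p = 1.1e-05). In the sterol arm 6 of 11 were higher (4 with upper-quartile factors) and 2 lower (1 with RLE factors or TPM). SC5D (log2 fold change 1.64 ± 0.17, adjusted p = 2.3e-07) and LSS (log2 fold change 0.84 ± 0.14, adjusted p = 4.4e-05) led those higher. MVD, at 0.82, was the fifth largest of the higher members. The lower ones were led by INSIG1 (log2 fold change -1.80 ± 0.22, adjusted p = 4.2e-07), ABCA1 (log2 fold change -1.70 ± 0.15, adjusted p = 1.1e-08), DHCR7 (log2 fold change -0.86 ± 0.14, adjusted p = 1.7e-05) and PMVK (log2 fold change -0.69 ± 0.19, adjusted p = 0.0035). SREBF1 passed (log2 fold change -0.63 ± 0.24, adjusted p = 0.036) but not without replicate 1 or 3 of day 9 RA, replicate 2 or 3 of day 6 RA or of untreated day 6, or replicate 1 of untreated day 9 (adjusted p between 0.055 and 0.15). Without replicate 1 of untreated day 9 its log2 fold change was -0.27. Of the regulators 3 were lower, and 1 on TPM. HMGCS1 (0.66), SQLE (0.45) and NPC1 (0.81) were among the higher, and SREBF2 (-0.04), SCARB1 (-0.25) and ABCG1 (-0.53) did not pass.

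CHIR/BMP4 was set against untreated day 9, the same factors without RA. Few members differed. NPC2 was 1.82-fold and SQLE 1.23-fold higher, and ABCA1 was 1.86-fold lower. Of all 29 members 2 rose and 7 fell, against 21% and 21.8% of all tested genes, with a median of -0.06, against 0.00. On TPM, with a median of 0.186 over the members and 0.206 over all genes, 9 rose and 1 fell, and all genes split 6384 to 1625 in place of 3268 to 3386. By role, TPM gave 2 rises and 0 falls in place of 0 and 1 in the mevalonate arm, 4 and 0 in place of 1 and 4 in the sterol arm, 1 and 0 in place of 0 and 1 among regulators, and 2 and 0 in place of 1 and 0 among transport genes. Without replicate 1 of CHIR/BMP4, 4 members fell.

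NPC2 had 69.0, 65.3 and 70.9 CPM in CHIR/BMP4 libraries, against 39.0, 35.9 and 37.0 CPM in untreated day 9 libraries. NPC2 was higher without overlap (log2 fold change 0.87 ± 0.09, adjusted p = 5e-08). SQLE had 81.8, 94.4 and 96.0 CPM in CHIR/BMP4 libraries, against 69.8, 73.4 and 80.4 CPM in untreated day 9 libraries. SQLE was higher in each library (log2 fold change 0.29 ± 0.09, adjusted p = 0.008), but not past the threshold without replicate 1 of untreated day 9 (adjusted p = 0.059). ABCA1 had 139, 136 and 107 CPM in CHIR/BMP4 libraries, against 229, 209 and 272 CPM in untreated day 9 libraries. ABCA1 was lower without overlap (log2 fold change -0.90 ± 0.11, adjusted p = 8.9e-07). HSD17B7 had 9.84, 11.0 and 10 CPM in CHIR/BMP4 libraries, against 14.8, 13.8 and 13.3 CPM in untreated day 9 libraries. HSD17B7 was lower in each library (log2 fold change -0.46 ± 0.12, adjusted p = 0.0026). FDFT1 had 83.9, 87.7 and 90.9 CPM in CHIR/BMP4 libraries, against 121, 102 and 107 CPM in untreated day 9 libraries. FDFT1 was also lower (log2 fold change -0.34 ± 0.08, adjusted p = 0.0019).

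SC5D had 136, 137 and 143 CPM in CHIR/BMP4 libraries, against 193, 173 and 159 CPM in untreated day 9 libraries. SC5D was lower (log2 fold change -0.34 ± 0.12, adjusted p = 0.029), and the call ended without any 1 of the CHIR/BMP4 libraries or replicate 1 or 2 of untreated day 9 (adjusted p between 0.053 and 0.15). PMVK had 10.3, 10.6 and 11.0 CPM in CHIR/BMP4 libraries, against 13.5, 14.0 and 12.4 CPM in untreated day 9 libraries. PMVK was lower (log2 fold change -0.32 ± 0.12, adjusted p = 0.035), a call that leaving out any of the same 5 libraries ended (adjusted p between 0.061 and 0.12). DHCR7 fell (log2 fold change -0.27 ± 0.10, adjusted p = 0.026) except without replicate 1 or 2 of CHIR/BMP4 or replicate 1 of untreated day 9 (adjusted p between 0.053 and 0.22), and without the last its log2 fold change was -0.17. SREBF2 had 235, 232 and 237 CPM in CHIR/BMP4 libraries, against 283, 287 and 278 CPM in untreated day 9 libraries. SREBF2 was lower (log2 fold change -0.27 ± 0.08, adjusted p = 0.012). On TPM the adjusted p was 0.16 for HSD17B7, 0.49 for FDFT1, 0.63 for SC5D, 0.55 for PMVK, 0.93 for DHCR7 and 0.85 for SREBF2.

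HMGCS1 had 92.3, 126 and 120.0 CPM in CHIR/BMP4 libraries, against 132, 118 and 146 CPM in untreated day 9 libraries. INSIG1 had 15.5, 21.1 and 21.2 CPM in CHIR/BMP4 libraries, against 14.3, 17.0 and 17.3 CPM in untreated day 9 libraries. Both overlapped (log2 fold change -0.23 ± 0.12, adjusted p = 0.15 for HMGCS1 and log2 fold change 0.28 ± 0.15, adjusted p = 0.13 for INSIG1). SREBF1 had 59.2, 45.7 and 51.3 CPM in CHIR/BMP4 libraries, against 71.7, 43.9 and 40.4 CPM in untreated day 9 libraries. SREBF1 overlapped (log2 fold change -0.05 ± 0.16, adjusted p = 0.83), and replicate 1 of untreated day 9 was its highest value, without which the log2 fold change of SREBF1 was 0.31 (adjusted p = 0.043). NPC1 had 62.6, 58.4 and 59.5 CPM in CHIR/BMP4 libraries, against 57.4, 52.9 and 54.3 CPM in untreated day 9 libraries. SCARB1 had 36.3, 35.0 and 35.1 CPM in CHIR/BMP4 libraries, against 33.9, 31.8 and 40.1 CPM in untreated day 9 libraries. NPC1 did not overlap and SCARB1 did, and neither passed (log2 fold change 0.13 ± 0.07, adjusted p = 0.16 for NPC1 and log2 fold change 0.02 ± 0.14, adjusted p = 0.94 for SCARB1). ABCG1 had 0.507, 0.333 and 0.466 CPM in CHIR/BMP4 libraries, against 0.603, 0.681 and 1.38 CPM in untreated day 9 libraries, from 3 to 15 counts. ABCG1 did not overlap and did not pass (log2 fold change -0.76 ± 0.44, adjusted p = 0.17). The other 14 members did not pass and lay between -0.26 (MVK) and 0.24 (NSDHL).

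In the neighbouring lists 2 fatty acid genes rose, ACSL3 (0.81) and GPAM (0.30), and 2 fell, SCD (-0.31) and ACACA (-0.21). MYLIP (log2 fold change 1.48 ± 0.25, adjusted p = 8.6e-05) and PLTP (0.88) rose and SMPDL3A fell (-0.52). In the sterol handling list 6 of 22 rose and 4 fell. SOAT2 had 9 counts in CHIR/BMP4 and 0 in untreated day 9 libraries, CYP7B1 and LIPA, the lysosomal lipase gene, lay at 0.76 and 0.68, and GRAMD1B (log2 fold change -2.20 ± 0.08, adjusted p = 4.6e-16), MBTPS1, an SREBP-cleaving protease gene (-0.43), and RNF139 (-0.29) fell most. CUBN rose (1.48), and VLDLR (-1.17) and LRP1 (-0.30) fell. Cardiac markers summed to 22.3 to 34.0 CPM in CHIR/BMP4, against 71.5 to 134 CPM in untreated day 9 libraries (MYBPC3 at 0 in both). Liver markers summed to 54.8 to 88.1, against 5.11 to 11.5 CPM, with APOC3 at 0 in untreated day 9, and cell cycle genes to 1505 to 1578, against 1785 to 1812 CPM. Their part in the results was not tested.

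Whether CHIR99021 with BMP4 acted differently after RA was tested as the interaction of both treatments at day 9, their effect after RA minus their effect without RA, so each log2 fold change given for it is a difference of log2 fold changes. Among the members 8 were higher and 6 lower, against 25.5% and 27.9% of all tested genes, with a median of 0.08, against 0.00. On TPM, with a median of -0.153 over the members and -0.198 over all genes, 3 were higher and 11 lower, and all genes split 2469 to 5922 in place of 3966 to 4334. By role, TPM gave 0 higher and 2 lower in place of 2 and 0 in the mevalonate arm, 2 and 5 in place of 3 and 3 in the sterol arm, and 0 and 1 in place of 2 and 0 among regulators, where RLE factors gave 0 and 0. ABCG1 (log2 fold change 2.41 ± 0.56, adjusted p = 0.00095), HSD17B7 (log2 fold change 1.12 ± 0.17, adjusted p = 7.8e-06), DHCR7 (log2 fold change 1.04 ± 0.14, adjusted p = 9.9e-07), MVK (log2 fold change 0.83 ± 0.20, adjusted p = 0.0012) and PMVK (log2 fold change 0.53 ± 0.18, adjusted p = 0.015) were highest, and the adjusted p of MVK and PMVK was 0.071 each on TPM. SC5D (log2 fold change -2.15 ± 0.17, adjusted p = 5.1e-09), NPC2 (log2 fold change -1.17 ± 0.13, adjusted p = 6.3e-08), NPC1 (log2 fold change -0.73 ± 0.10, adjusted p = 1.8e-06), NSDHL (log2 fold change -0.70 ± 0.17, adjusted p = 0.0014) and SCARB1 (log2 fold change -0.59 ± 0.20, adjusted p = 0.017) were lowest, and the SCARB1 call ended without replicate 1 of RA-CHIR/BMP4 or of day 9 RA (adjusted p = 0.057 and 0.051). HMGCS1 (0.28), SQLE (0.08), SREBF1 (-0.14) and ABCA1 (-0.08) did not pass. The call of INSIG1 (log2 fold change 0.52 ± 0.21, adjusted p = 0.046) ended without replicate 1 or 3 of RA-CHIR/BMP4, replicate 2 or 3 of day 9 RA or of untreated day 9, or replicate 1 of CHIR/BMP4 (adjusted p between 0.06 and 0.15). That of SREBF2 (log2 fold change 0.29 ± 0.12, adjusted p = 0.04) ended without any 1 of the 12 libraries except replicate 1 of day 9 RA (adjusted p between 0.052 and 0.077).

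Untreated day 9 was last set against untreated day 6, the change over 3 days without added factors. Replicates 1 and 3 of untreated day 6 differed from replicate 2 in the share of pseudogenes higher in treated libraries (8.96% and 17.6%, against 0.369%). They differed likewise from untreated day 9 libraries (0.321% to 0.565%). Time is therefore not fully separate from the difference in kind of library. With the pseudogene share as a covariate 9 of the 14 calls were kept. SCARB1 was 2.12-fold, INSIG2 1.80-fold and STARD4 1.56-fold higher, and ABCG1 was 3.27-fold and ACAT2 1.45-fold lower. Of the 29 members 9 rose and 5 fell, against 24% and 22.9% of all tested genes, with a median of -0.02, against 0.00. On TPM, with a median over all genes of -0.146, 6 rose and 13 fell, and all genes split 2208 to 5617 in place of 3735 to 3552. By role, TPM gave 2 rises and 4 falls in place of 2 and 1 in the mevalonate arm, 1 and 5 in place of 2 and 2 in the sterol arm, 1 and 1 in place of 2 and 0 among regulators, 2 and 2 in place of 2 and 1 among transport genes and 0 and 1 in place of 1 and 1 among exporters. RLE factors gave 2 falls in the mevalonate arm and 2 among transport genes. Without replicate 1 of untreated day 9 or replicate 2 of untreated day 6, 9 members fell.

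SCARB1 had 33.9, 31.8 and 40.1 CPM in untreated day 9 libraries, against 17.7, 14.2 and 17.5 CPM in untreated day 6 libraries. SCARB1 was higher without overlap (log2 fold change 1.08 ± 0.16, adjusted p = 1e-05). NPC2 had 39.0, 35.9 and 37.0 CPM in untreated day 9 libraries, against 58.0, 43.9 and 44.6 CPM in untreated day 6 libraries. NPC2 was lower in each library (log2 fold change -0.38 ± 0.10, adjusted p = 0.0022), by -0.24 without replicate 1 of untreated day 6. STARD4 had 29.2, 33.5 and 24.9 CPM in untreated day 9 libraries, against 21.3, 18.9 and 16.2 CPM in untreated day 6 libraries. STARD4 was higher (log2 fold change 0.64 ± 0.15, adjusted p = 0.0018). INSIG2 had 16.2, 22.8 and 19.2 CPM in untreated day 9 libraries, against 10.7, 11.5 and 9.55 CPM in untreated day 6 libraries. INSIG2 was higher without overlap (log2 fold change 0.84 ± 0.16, adjusted p = 0.00019). SREBF2 had 283, 287 and 278 CPM in untreated day 9 libraries, against 255, 233 and 183 CPM in untreated day 6 libraries. SREBF2 was higher by less (log2 fold change 0.34 ± 0.08, adjusted p = 0.0019, and 0.19 without replicate 3 of untreated day 6), with an adjusted p of 0.11 on TPM. INSIG1, SREBF1 and NPC1 did not pass. INSIG1 had 14.3, 17.0 and 17.3 CPM in untreated day 9 libraries, against 14.3, 14.6 and 13.7 CPM in untreated day 6 libraries (log2 fold change 0.16 ± 0.16, adjusted p = 0.43). SREBF1 had 71.7, 43.9 and 40.4 CPM in untreated day 9 libraries, against 59.0, 50.5 and 54.8 CPM in untreated day 6 libraries (log2 fold change -0.02 ± 0.17, adjusted p = 0.94). NPC1 had 57.4, 52.9 and 54.3 CPM in untreated day 9 libraries, against 64.7, 60.3 and 60.0 CPM in untreated day 6 libraries (log2 fold change -0.16 ± 0.07, adjusted p = 0.074). INSIG1 and SREBF1 overlapped and NPC1 did not.

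Of the mevalonate genes 2 rose and 1 fell. MVK had 22.8, 19.1 and 27.8 CPM in untreated day 9 libraries, against 16.2, 14.3 and 14.3 CPM in untreated day 6 libraries. MVK was higher without overlap (log2 fold change 0.63 ± 0.14, adjusted p = 0.00086), and PMVK rose (0.45). ACAT2 had 42.5, 34.7 and 38.5 CPM in untreated day 9 libraries, against 62.5, 57.1 and 51.2 CPM in untreated day 6 libraries. ACAT2 was lower in each library (log2 fold change -0.54 ± 0.10, adjusted p = 0.00014). HMGCS1 had 132, 118 and 146 CPM in untreated day 9 libraries, against 131, 117 and 105 CPM in untreated day 6 libraries. HMGCS1 overlapped (log2 fold change 0.17 ± 0.13, adjusted p = 0.3). Of the sterol arm 2 rose, SC5D and HSD17B7, and 2 fell, SQLE and TM7SF2. SC5D had 193, 173 and 159 CPM in untreated day 9 libraries, against 100.3, 107 and 148 CPM in untreated day 6 libraries. SC5D was higher without overlap (log2 fold change 0.56 ± 0.12, adjusted p = 0.00091). SQLE had 69.8, 73.4 and 80.4 CPM in untreated day 9 libraries, against 104, 98.2 and 88.9 CPM in untreated day 6 libraries. SQLE was lower (log2 fold change -0.39 ± 0.09, adjusted p = 0.00091).

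TM7SF2 had 48.6, 35.7 and 37.2 CPM in untreated day 9 libraries, against 61.1, 51.1 and 48.9 CPM in untreated day 6 libraries. TM7SF2 was lower (log2 fold change -0.37 ± 0.12, adjusted p = 0.012) except without replicate 2 or 3 of untreated day 9 (adjusted p = 0.062 and 0.055) or replicate 1 of untreated day 6 (adjusted p = 0.092), and without replicate 1 of untreated day 9 its log2 fold change was -0.56. HSD17B7 rose (log2 fold change 0.41 ± 0.12, adjusted p = 0.01) except without replicate 1 of untreated day 9 (adjusted p = 0.063) and not on TPM (adjusted p = 0.15). ABCA1 had 229, 209 and 272 CPM in untreated day 9 libraries, against 171, 187 and 199 CPM in untreated day 6 libraries. ABCA1 was higher (log2 fold change 0.35 ± 0.11, adjusted p = 0.011), but not past the threshold without replicate 3 of untreated day 9 (adjusted p = 0.077), without replicate 1 of untreated day 6 (adjusted p = 0.059) or on TPM (adjusted p = 0.27). ABCG1 had 0.603, 0.681 and 1.38 CPM in untreated day 9 libraries, against 3.08, 2.71 and 1.93 CPM in untreated day 6 libraries, from 4 to 15 counts in the first group and 17 to 23 in the second. ABCG1 was lower without overlap (log2 fold change -1.71 ± 0.36, adjusted p = 0.00041). The 11 members not named in this comparison did not pass and lay between -0.35 (MVD) and 0.52 (CYP51A1).

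In the neighbouring lists ACSS2 (0.99), SCD (0.69) and ME1 (0.53) led 5 rises and ACSL3 (log2 fold change -1.73 ± 0.14, adjusted p = 1.6e-08), ACLY (-0.40) and FADS2 (-0.31) were the 3 falls among 14 fatty acid genes. SMPDL3A (-1.17), MYLIP (-0.83) and LPCAT3 (-0.46) fell and 0 liver X receptor genes or targets rose. Of 22 sterol handling genes 8 rose, led by GRAMD1C (2.05), CYP46A1 (1.06) and CYP27A1 (0.56), and 6 fell, led by GRAMD1B (-1.06), LIPA (-0.87) and CYP7B1 (-0.63). LRP1 (0.82), SORL1 (0.48) and VLDLR (0.40) rose, and LRP2 (log2 fold change -3.04 ± 0.28, adjusted p = 1.1e-06) and LRP8 (-1.13) fell. The 3 pluripotency markers in the table (POU5F1, NANOG and DPPA4) summed to 8.99 to 13.9 CPM in untreated day 9, against 46.3 to 56.7 CPM in untreated day 6 libraries, and 5 endothelial markers to 37.5 to 128, against 167 to 271 CPM, with none of either list at 0. Liver markers summed to 5.11 to 11.5, against 17.7 to 36.9 CPM, with APOC3 at 0 in both, and cell cycle genes to 1785 to 1812, against 1654 to 1737 CPM. Their part in the results was not tested.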

How the data were processed

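Bulk RNA-seq of 18 libraries of H1-derived foregut endoderm was analysed from 2 tables: the authors deposited read counts per gene, which were tested as deposited, and TPM per gene, used for levels between genes and for an alternative fit on log2(TPM + 1). RNA libraries were made with a TruSeq stranded mRNA kit, per the labels' protocols, and STAR 2.7.9 and GRCh38 are named in the submitters' processing notes; the step that assigned reads to genes, its strand setting and its annotation were not given in the sources used here. Antisense and overlapping genes may therefore share reads. Among the count rows, 36 had no gene symbol (0.00102% of counts) and were left out.

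Groups came from the labels. Genes were filtered with edgeR 4.0.16 (filterByExpr, minimum count 10; R 4.3.3) and scaled by TMM. All 6 groups were fitted in one quasi-likelihood model, with Benjamini-Hochberg adjustment over all tested genes and a threshold of 0.05, and every adjusted p in the text comes from this test unless TPM, DESeq2 or another fit is named. CPM uses TMM-scaled totals. The SE was derived from the fold change and its F statistic. The model was checked on simulated counts. The genes and lists were chosen with earlier results of these data known. All members were described by role. Library values were given for up to 5 called members in each direction with the largest change, for 9 fixed members (HMGCS1, SQLE, INSIG1, SREBF1, SREBF2, NPC1, SCARB1, ABCA1 and ABCG1), and fold changes for up to 3 called genes per direction of each neighbouring list. Alternatives were RLE and upper-quartile factors, CPM on raw totals, no filter, a replicate block, the pseudogene share as a covariate, pseudogene copies added, DESeq2 1.42.0, limma 3.58.1 on TPM, only the groups compared, and each library left out. Replicates differed by more than sampling noise (chi-square per gene 2.15 to 10.6) and none were merged, which does not show that they were separate cultures. Replicate numbers showed no clear pairing of samples: of 21 same-numbered pairs 3 had correlated deviations above 0.1 (r between -0.076 and 0.228), and in 0 comparisons did all pairs. Pairs with different numbers were not compared, so this check cannot exclude pairing.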

Additional observations from a re-analysis of the deposited data

Results flagged for a closer look

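The effect of CHIR99021 with BMP4 differed after RA from that without RA in 14 of 29 members (8 higher and 6 lower, where 25.5% of all tested genes were higher and 27.9% lower), by a test of the difference itself (edgeR's quasi-likelihood test; each value is the log2 difference, effect after RA minus effect without, with its adjusted p). Genes of the synthesis route were on both sides. MVK differed by 0.83 (adjusted p = 0.0012), PMVK by 0.53 (adjusted p = 0.015), HSD17B7 by 1.12 (adjusted p = 7.8e-06), EBP by 0.47 (adjusted p = 0.011) and DHCR7 by 1.04 (adjusted p = 9.9e-07), while FDFT1 differed by -0.37 (adjusted p = 0.011), NSDHL by -0.70 (adjusted p = 0.0014) and SC5D by -2.15 (adjusted p = 5.1e-09). SREBF2 and INSIG1 differed by 0.29 and 0.52 (adjusted p = 0.04 and 0.046). The 3 transport genes NPC1, NPC2 and SCARB1 were lower, by -0.73, -1.17 and -0.59 (adjusted p = 1.8e-06, 6.3e-08 and 0.017), and ABCG1 was higher by 2.41 (adjusted p = 0.00095). The EBP call ended without replicate 1 of untreated day 9 (adjusted p = 0.055), and on TPM the calls of EBP (adjusted p = 0.19), SREBF2 (adjusted p = 0.76) and INSIG1 (adjusted p = 0.31) ended, beside those of MVK and PMVK.

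The effect of RA differed between day 9 and day 6 in 20 of 29 members (13 higher and 7 lower, where 24.9% of all tested genes were higher and 26% lower), again by a test of the difference (day 9 minus day 6). In the mevalonate arm ACAT2 differed by 0.93 (adjusted p = 1.1e-05), HMGCS1 by 0.66 (adjusted p = 0.0051), MVD by 0.82 (adjusted p = 0.0016), IDI1 by 1.02 (adjusted p = 1.7e-06), FDPS by 0.48 (adjusted p = 0.0013) and PMVK by -0.69 (adjusted p = 0.0035). In the sterol arm SQLE, LSS, TM7SF2 and MSMO1 differed by 0.45, 0.84, 0.42 and 0.39 (adjusted p = 0.0038, 4.4e-05, 0.039 and 0.039), NSDHL by 0.79 (adjusted p = 0.00066), SC5D by 1.64 (adjusted p = 2.3e-07), HSD17B7 by -0.44 (adjusted p = 0.049) and DHCR7 by -0.86 (adjusted p = 1.7e-05). Of the sensors SREBF1 differed by -0.63 (adjusted p = 0.036), SCAP by -0.24 (adjusted p = 0.049) and INSIG1 by -1.80 (adjusted p = 4.2e-07). NPC1 and NPC2 were higher by 0.81 and 0.74 (adjusted p = 6.8e-07 and 5.6e-05), and ABCA1 differed by -1.70 (adjusted p = 1.1e-08). Some of these calls ended when 1 library was left out. For TM7SF2 these were replicate 1 or 2 of day 9 RA, 2 or 3 of untreated day 9, 1 or 3 of day 6 RA and 1 of untreated day 6 (up to adjusted p = 0.13). For MSMO1 they were replicate 2 or 3 of day 9 RA or day 6 RA, 1 of untreated day 9 and 2 of untreated day 6 (up to adjusted p = 0.13). For HSD17B7 and SCAP they were replicate 2 or 3 of day 9 RA, 1 or 2 of untreated day 9 and 1 or 3 of day 6 RA, with replicate 1 or 3 of untreated day 6 for HSD17B7 and 2 or 3 for SCAP (up to adjusted p = 0.13 and 0.16). On TPM the calls of HSD17B7 (adjusted p = 0.15), SREBF1 (adjusted p = 0.12) and SCAP (adjusted p = 0.42) ended. The first difference is made from 3 treated groups and 1 untreated group and cannot be told apart from the difference in kind of library: with the pseudogene share as a covariate 0 of its 14 calls were kept. The second has treated and untreated libraries at both days, and 16 of its 20 calls were kept with that covariate. Within groups the covariate varied mainly among untreated day 6 libraries (8.96%, 0.369% and 17.6%). The kept calls therefore do not separate this difference from the kind of library.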

How the results depend on the processing

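Of 146 calls of members over the 7 comparisons and 2 interactions, 146 were kept with pseudogene copies added, 141 with RLE factors, 140 with upper-quartile factors, 139 without the low-count filter, 137 with DESeq2 and 114 with limma on TPM, and 140 of 145 with only the groups compared. Over all fits that left out 1 library, 962 of 1080 calls were kept. With the replicate block 143 calls were kept, 3 were lost and 8 gained, and no count of calls moved by over 1.5 times; the labels do not pair the libraries. With upper-quartile factors the median of all genes was -0.116 for RA at day 9, 0.104 for CHIR99021 with BMP4 after RA, -0.11 for day 9 against day 6 after RA and -0.12 for the RA difference between days, in place of -0.02, 0.02, -0.03 and -0.04.

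With the pseudogene share as a covariate 80 calls were kept. Members called higher and lower were then 0 and 0 for RA at day 6, for RA at day 9, for CHIR99021 with BMP4 without RA and for the interaction of both treatments, where group and covariate nearly coincide. The count higher was 5 for untreated day 9 against day 6 and the count lower 4 for the RA difference between days. Signs turned, none past the threshold, for ACAT2 (0.30), HMGCS1 (0.32) and IDI1 (0.28) with RA at day 6, for MVD (-0.34), LSS (-1.29), NSDHL (-0.75) and SC5D (-1.49) with RA at day 9, and for FDFT1 (0.29) and SREBF2 (1.63) with CHIR99021 and BMP4 without RA. In the interaction of both treatments they turned for NSDHL (0.67), SC5D (0.60), SREBF2 (-1.62), INSIG1 (-0.043), SCARB1 (1.20) and ABCG1 (-0.60).

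On TPM, members called higher and lower were 12 and 4 for RA at day 6, 20 and 4 for RA at day 9, 9 and 1 for CHIR99021 with BMP4 without RA, and 3 and 11 for their interaction with RA. The count lower was 2 for RA before CHIR99021 with BMP4, 13 for untreated day 9 against day 6 and 4 for the RA difference between days. SREBF2 (0.23) and SCAP (0.19) turned round for RA at day 9, and EBP (0.24) for CHIR99021 with BMP4 without RA. RLE factors gave 8 lower for untreated day 9 against day 6. The count lower for the RA difference between days was 4 without the filter and 4 with only the groups compared. The causes were not tested.

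Leaving out single libraries gave counts higher and lower of 8 to 11 and 8 to 11 for CHIR99021 with BMP4 after RA, 8 to 9 and 3 to 5 for RA before CHIR99021 with BMP4, 15 to 16 and 6 to 6 for day 9 against day 6 after RA, 9 to 11 and 6 to 7 for RA at day 9, 5 to 7 and 8 to 10 for RA at day 6, 2 to 3 and 4 to 7 for CHIR99021 with BMP4 without RA, 8 to 9 and 4 to 9 for untreated day 9 against day 6, 6 to 9 and 5 to 8 for the interaction of both treatments, and 11 to 13 and 4 to 7 for the RA difference between days. For CHIR99021 with BMP4 without RA, SREBF1 ranged from -0.20 to 0.31 over these fits, turning positive without replicate 1 of untreated day 9. Depth limits ABCG1 and CYP51A1, whose values rest on 3 to 60 and 5 to 52 counts a library.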
